A study of Homo sapiens with 6 samples.

Results

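The 52 genes described here are the ligands, receptors, secreted inhibitors, transcription factors and feedback targets of the WNT pathway, taken from a fixed list of gene names and not from their values. They comprise 14 WNT ligands, 10 Frizzled receptors, 2 LRP co-receptors, 3 receptors of non-canonical signalling, 7 secreted inhibitors, 3 R-spondins with their receptor LGR4, 10 canonical targets and feedback genes, and 2 TCF7L factors. Of 27439 genes with reads in the series, 49 were members, and 40 members were among the 15984 genes with enough reads to test. RNA came from astrocytes derived from H1, an established human embryonic stem cell line. The sample titles name control cells (3 libraries) and VM, or ventral midbrain, cells (3 libraries), with the libraries of each group numbered 2, 3 and 4. Ventral midbrain is used here as the name of that group, and regional markers are given below. Both groups come from the same line, no genotype or treatment separates them in the labels, and the agents used to pattern the cells are not given in the sources used here. No label says whether the libraries came from separate cultures, so p-values measure the spread between these samples, which may be technical.

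WNT proteins are lipid-modified signals that bind Frizzled receptors. In the canonical branch a Frizzled and LRP5 or LRP6 together hold back the complex that destroys beta-catenin, which then enters the nucleus and turns on targets through TCF and LEF factors, several of these targets being inhibitors that feed back on the pathway. In the non-canonical branch ligands such as WNT5A act through Frizzled, ROR and RYK proteins on cell polarity and movement. During brain development WNT signalling is high at the dorsal midline and at the border between midbrain and hindbrain and is kept low at the front of the forebrain by secreted inhibitors.

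The libraries were made from the 3' ends of polyadenylated RNA and held 11617935 to 15391082 estimated reads each. Levels are given as CPM, reads scaled to a common library size. In a 3' end library a transcript yields reads at its end alone, so CPM were not divided by length. Of 18 astrocyte markers 17 had reads and were tested, and HEPACAM had none in any library. ALDH1L1 had 5 to 28 reads per library and SLC1A2 12 to 45. AQP4, SLC1A3 and NFIA were higher in ventral midbrain libraries (17.6% of the 17, beside 2.15% of all tested genes) and none was lower. Each of these calls was kept in only 1 or 2 of the fits that left out a library. With the replicate number as a block 4 were higher and 4 lower. Of 8 tested forebrain markers 6 were lower in ventral midbrain libraries, among them EMX2, LHX2 and SIX3, the last 2 no longer called with the replicate number as a block (adjusted p 0.067 and 0.11). Of 8 tested midbrain and hindbrain markers EN1 and EN2 were higher and none lower. In the blocked fit 4 were higher, EN1, EN2, PAX8 and GBX2. OTX2 was lower there (log2 fold change -2.92 and adjusted p 0.24 without the block, 0.0014 with it). FOXA2, a floor plate gene, had 1, 3 and 0 reads in control and 0, 16 and 0 in ventral midbrain, and LMX1A averaged 0.607 and 0.658 CPM. LMX1B averaged 0.322 CPM in control and 2.57 CPM in ventral midbrain without overlap, at 1 to 62 reads per library. Its adjusted p was 0.13 by edgeR, 0.063 with the block and 0.023 by DESeq2. The samples are mixtures of cells, so fewer cells of a type and less RNA per cell cannot be told apart.

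The WNT genes differed between the 2 groups in a few members. The intracellular feedback inhibitor NKD2 was 4.06-fold higher in ventral midbrain libraries, and the secreted inhibitor WIF1 and the receptors FZD5 and FZD8 were 5.17-fold, 4.44-fold and 2.57-fold lower. These 4 of 40 tested members (10%) passed edgeR's test, against 2.15% of all tested genes. The test did not use the replicate number and called genes at an adjusted p under 0.05 (Benjamini and Hochberg's method over all genes). The 1 member that was higher stands beside 1.06% of all genes higher, and the 3 that were lower beside 1.09% of all genes lower. The other 36 tested members did not pass. An unadjusted p under 0.05 was found in 14 of the 40 members, beside 12% of all tested genes. That share of all genes applies to each such count below. Over the 40 members the median log2 fold change, ventral midbrain over control, was 0.13, with 25 positive and 15 negative values, and over all tested genes it was 0.01. Control and ventral midbrain libraries had no overlapping values in 16 of the 40 members, 10 higher and 6 lower, and in 17.9% of all tested genes.

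Same-numbered control and ventral midbrain libraries deviated together. With the replicate number as a block, 5 of the 40 tested members were higher, beside 3.63% of all tested genes. Another 4 of the 40 were lower, beside 4.50% of all genes. That makes 9 of the 40 members, beside 8.13% of all genes in either direction. WIF1 was no longer called with the block, while FZD3, FZD6, ROR1 and TCF7L1 were called higher and LGR4 and TCF7 lower. Among other tools, DESeq2 called 7 of the 40 members, namely WNT5A, FZD3, FZD5, FZD8, WIF1, NKD2 and ZNRF3, beside 4.67% of all genes. Limma voom called 4 of the 40, beside 2.10% of all genes. The spread of the members' fold changes and their intervals by role is shown in the plot of fold changes.

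**Figure D1:**
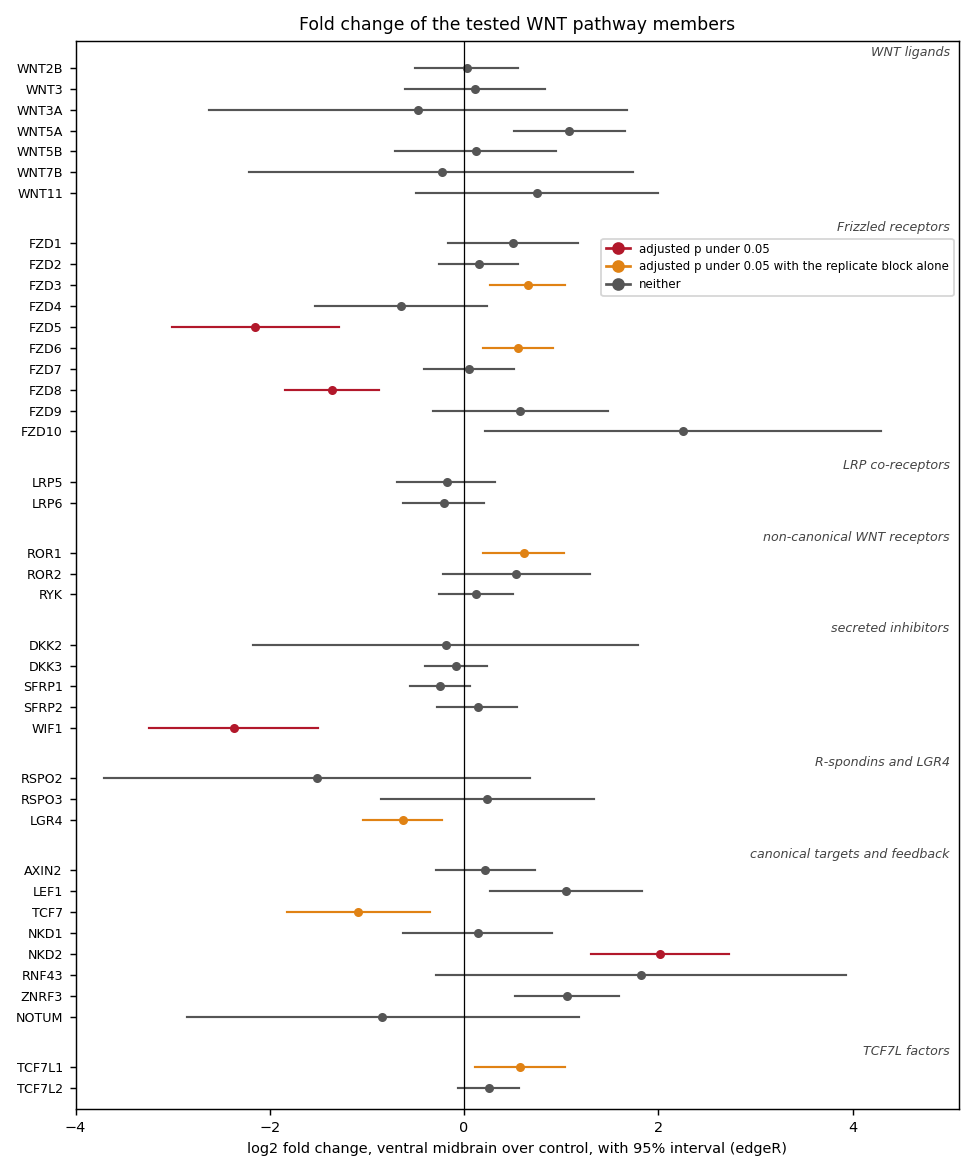
Log2 fold change (ventral midbrain over control, x axis) of the 40 tested members, grouped by role on the y axis, with 95% intervals from edgeR; red points passed the test, orange points passed it with the replicate block alone. NKD2 at 2.02 stands on the right and WIF1 at -2.37, FZD5 at -2.15 and FZD8 at -1.36 on the left, while the intervals of most ligands, co-receptors and inhibitors span 0.

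The stretches just upstream of the start sites of NKD2, FZD5 and FZD8 are shown because they lie next to the starts of called members, with that of SP5, a textbook canonical target, beside them. The window of WIF1 lies inside the gene as counted here, whose model starts further upstream, and is not shown. The windows are the 250 bases before the start in RefSeq's table for GRCh38.p14, written 5' to 3' on the gene's strand. Capitals mark CTTTGA or CTTTGT, the letters that TCF and LEF factors read, on either strand (TCAAAG or ACAAAG on the other) in SP5, and CCAAT, the letters that the factor NF-Y reads, on the other strand (ATTGG) in the others.
NKD2 chr5:1008552-1008801 (+ strand): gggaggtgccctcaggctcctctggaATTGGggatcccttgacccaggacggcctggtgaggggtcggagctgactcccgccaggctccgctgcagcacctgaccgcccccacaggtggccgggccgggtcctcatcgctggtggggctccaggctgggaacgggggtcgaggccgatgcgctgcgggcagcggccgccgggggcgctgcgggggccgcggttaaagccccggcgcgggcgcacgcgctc
FZD5 chr2:207769907-207770156 (- strand): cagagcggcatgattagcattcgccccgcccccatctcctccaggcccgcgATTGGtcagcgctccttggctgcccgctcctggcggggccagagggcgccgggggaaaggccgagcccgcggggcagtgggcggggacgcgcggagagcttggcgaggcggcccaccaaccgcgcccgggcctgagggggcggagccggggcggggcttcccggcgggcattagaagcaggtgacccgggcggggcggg
FZD8 chr10:35642297-35642546 (- strand): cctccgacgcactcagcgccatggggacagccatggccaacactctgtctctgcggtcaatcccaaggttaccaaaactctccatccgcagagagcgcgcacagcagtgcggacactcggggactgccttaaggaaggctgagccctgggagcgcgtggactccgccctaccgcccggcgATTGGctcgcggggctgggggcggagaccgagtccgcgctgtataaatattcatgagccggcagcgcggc
SP5 chr2:170715087-170715336 (+ strand): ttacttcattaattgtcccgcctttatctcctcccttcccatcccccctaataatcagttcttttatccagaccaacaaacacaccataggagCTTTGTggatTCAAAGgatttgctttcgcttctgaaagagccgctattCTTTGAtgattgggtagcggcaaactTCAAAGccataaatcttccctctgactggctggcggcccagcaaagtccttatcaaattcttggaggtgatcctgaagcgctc

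The windows of NKD2, FZD5 and FZD8 held neither CTTTGA nor CTTTGT, and that of SP5 held 4 matches, at 157, 147, 109 and 83 bases before the start. Of 35093 such windows over all genes, 11.2% held CTTTGA and 13.7% CTTTGT on either strand. The table had windows for 34 member genes, and for 18 of them a window lay at least partly inside the gene model used for counting. CTTTGA was in those of 2, DKK1 and SP5, and both genes were too low to test. CTTTGT was in those of 8, of which TCF7, TCF7L2, FZD1, ROR2 and RNF43 were tested. CCAAT was in 16 of the 41 windows of member genes, from 16 genes, and in 32.0% of all windows. FZD5, FZD8 and NKD2 carried it, as ATTGG, 199, 70 and 224 bases before the start. The window of SP5 also held ATTGG, which is not marked above. These are matches of letters in a window, and neither binding nor regulation was measured.

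Among the ligands none of the 7 tested passed edgeR's test, 1 had an unadjusted p under 0.05, DESeq2 called 1 and limma voom none. WNT5A, the main ligand of non-canonical signalling, was the most abundant. Its level was 59.1, 73.0 and 45.9 CPM in control replicates 2, 3 and 4 and 122, 86.7 and 169 CPM in ventral midbrain. All 3 ventral midbrain libraries were above all 3 controls, with replicate 3 the closest pair. The log2 fold change was 1.08 ± 0.26 (SE), with an edgeR adjusted p of 0.070, 0.19 with the replicate block and 0.0031 by DESeq2, and WNT5A passed without ventral midbrain replicate 3, the lowest of its group (1.29, adjusted p 0.021). In the other 5 fits that left out a library it did not pass, with 0.81 to 1.26 and adjusted p-values of 0.069 to 0.27. Ventral midbrain replicate 3 and control replicate 3 also had the highest summed level of 16 cell cycle genes, 4200 and 3042 CPM against 903 to 1278 CPM in the other 4 libraries. None of these cell cycle genes passed edgeR's test, none had an unadjusted p under 0.05, and DESeq2 and limma voom called none, while 4 were higher with the replicate block. The part of cell cycling in the WNT5A difference was not tested. WNT5A took 40.7% to 58.7% of the ligands' summed CPM in control and 57.6% to 70.4% in ventral midbrain, ranges that overlap.

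WNT2B, a ligand of the canonical branch, was next, at 44.4, 30.0 and 26.0 CPM in control and 34.5, 41.6 and 26.8 CPM in ventral midbrain. The groups overlapped and the log2 fold change was 0.03 ± 0.24 (SE), with a 95% interval of -0.50 to 0.56. WNT5B averaged 17.5 ± 5.88 (SD, n = 3) and 19.0 ± 7.99 (SD, n = 3) CPM, and WNT3 8.60 ± 2.58 and 9.28 ± 3.01 (SD, n = 3). WNT11 averaged 2.36 ± 1.62 and 3.99 ± 1.79 CPM (SD, n = 3), and WNT3A and WNT7B stayed between 0.0856 and 2.42 CPM in all 6 libraries. Of the other ligands, WNT4, WNT6, WNT7A and WNT10B were too low to test, and WNT2, WNT8B and WNT16 had no read. A count of 0 allows 3 reads, which is 0.195 to 0.257 CPM depending on the library. The summed level of all 14 ligands was 124 ± 11.5 CPM in control and 195 ± 44.6 CPM in ventral midbrain (SD, n = 3). Ligand levels differed widely between genes, as the plot of levels in each library shows.

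**Figure D2:**
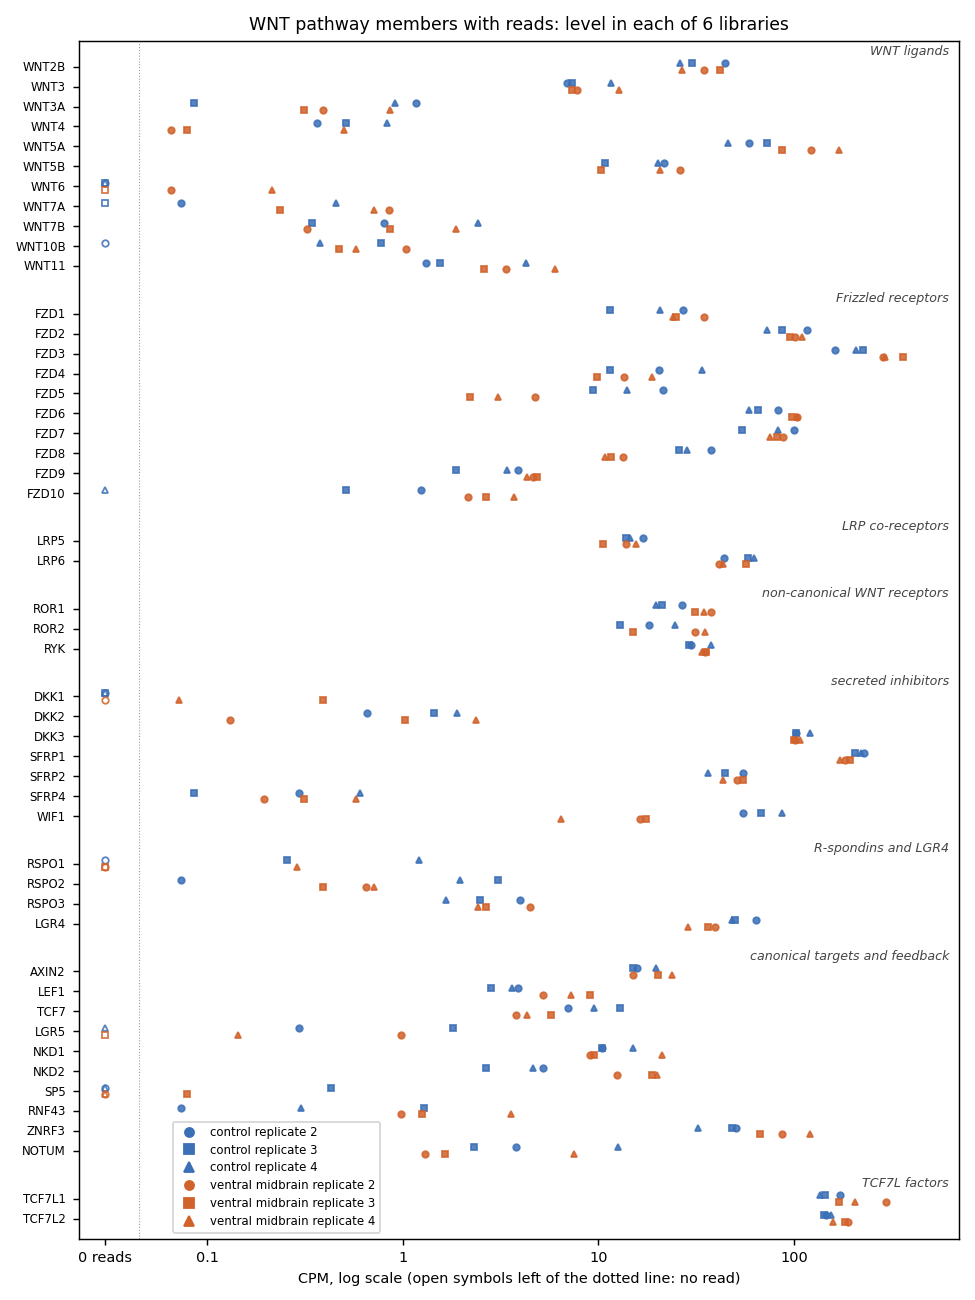
CPM on a log axis for the 49 members with reads, grouped by role, with 3 control libraries in blue and 3 ventral midbrain libraries in orange; open symbols at the left edge are libraries without a read. FZD3, SFRP1, TCF7L1 and TCF7L2 are the highest members, and most members differ more from each other than between the 2 groups.

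The Frizzled receptors divided, with 2 of 10 lower, none past edgeR's test higher, and a median log2 fold change of 0.33. FZD5, a receptor known from the eye field and the forebrain of embryos, was at 21.3, 9.41 and 14.0 CPM in control and 4.75, 2.20 and 3.08 CPM in ventral midbrain. Every ventral midbrain library was below every control, and control replicate 2 was the highest. The log2 fold change was -2.15 ± 0.39 (SE, edgeR adjusted p = 0.019). FZD8, known from the anterior neural plate, was at 37.6, 25.8 and 28.5 CPM in control and 13.4, 11.6 and 10.8 CPM in ventral midbrain. Again the groups did not overlap, and the ventral midbrain libraries lay close together. On the log2 scale FZD8 changed by -1.36 ± 0.22 (SE), with an edgeR adjusted p of 0.010. Together FZD5 and FZD8 made up 8.53% ± 1.59 of the Frizzled CPM in control and 2.31% ± 0.426 in ventral midbrain (SD, n = 3), with at least 7.18% in each control library and at most 2.80% in each ventral midbrain one. The 10 forebrain markers summed to 916 to 1201 CPM in control and 230 to 352 CPM in ventral midbrain, with EMX1 at 0 in all libraries. NR2F1 held much of these sums, at 375 to 717 CPM and 193 to 292 CPM (edgeR adjusted p 0.052, lower with the block). OTX1 overlapped between groups, and all 8 tested markers had negative log2 fold changes. The part of forebrain identity in the falls of FZD5 and FZD8 was not tested. The FZD5 call was lost without control replicate 2, control replicate 4, ventral midbrain replicate 3 or ventral midbrain replicate 4 (with adjusted p-values up to 0.079), and the FZD8 call without ventral midbrain replicate 4 alone (adjusted p 0.052).

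FZD3, a receptor of planar cell polarity and axon guidance, was the most abundant Frizzled, at 162, 225 and 208 CPM in control and 284, 361 and 293 CPM in ventral midbrain. No control library reached the lowest ventral midbrain one, and the log2 fold change was 0.66 ± 0.17 (SE), at an edgeR adjusted p of 0.095, which the replicate block moved to 0.0025. FZD6, a relative of FZD3 in polarity signalling, was at 82.7, 65.1 and 58.6 CPM in control and 103, 97.5 and 104 CPM in ventral midbrain. Its groups did not overlap either, and its log2 fold change of 0.56 ± 0.16 (SE) had an edgeR adjusted p of 0.14, and 0.013 with the block. FZD2 was at 117, 86.7 and 72.3 CPM in control and 101, 94.9 and 110 CPM in ventral midbrain, with overlapping groups and a log2 fold change of 0.15 (adjusted p = 0.85). FZD7 averaged 78.7 and 81.5 CPM. FZD1, FZD4 and FZD9 had log2 fold changes of 0.50, -0.65 and 0.58, and none passed. FZD4 shares its locus with PRSS23 on the opposite strand, which had 770 to 3117 reads, and the sources do not say whether counting used strand. FZD10 was at 1.24, 0.513 and 0 CPM in control and 2.15, 2.67 and 3.72 CPM in ventral midbrain, without overlap, and its log2 fold change of 2.25 ± 0.92 (SE) had an adjusted p of 0.34. It moved from 1.67 without control replicate 4, the library with no FZD10 read, to 3.47 without control replicate 2. The summed Frizzled level was 529 ± 41.3 CPM in control and 662 ± 24.9 CPM in ventral midbrain (SD, n = 3).

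Neither co-receptor of the canonical branch passed edgeR's test, and neither had an unadjusted p under 0.05 or a call by DESeq2 or limma voom. LRP6 was at 43.6, 58.0 and 62.1 CPM in control and 41.1, 56.8 and 43.5 CPM in ventral midbrain, and LRP5 at 16.9, 13.9 and 14.5 CPM against 13.8, 10.6 and 15.5 CPM. The groups overlapped in both, and the log2 fold changes were -0.21 (95% interval -0.63 to 0.21) and -0.18 (-0.69 to 0.32). Among the receptors of non-canonical signalling, ROR1, a receptor tyrosine kinase that binds WNT5A, was at 26.6, 21.1 and 19.7 CPM in control and 37.6, 31.1 and 34.6 CPM in ventral midbrain. The groups did not overlap, and the log2 fold change was 0.62 ± 0.19 (SE), at an edgeR adjusted p of 0.16, which the replicate block moved to 0.027. Its relative ROR2 averaged 18.6 ± 5.84 and 27.0 ± 10.5 CPM (SD, n = 3), with overlap. RYK was at 29.8, 28.9 and 37.4 CPM in control and 35.0, 35.4 and 34.0 CPM in ventral midbrain, also with overlap. All 3 log2 fold changes were positive, with a median of 0.54, and without the block none of the 3 genes passed by edgeR, DESeq2 or limma voom, ROR1 alone having an unadjusted p under 0.05.

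Of the 5 tested secreted inhibitors 4 had negative log2 fold changes, and only WIF1 passed edgeR's test. It encodes a protein that binds WNT ligands outside the cell. Its level was 54.8, 67.8 and 87.0 CPM in control and 16.4, 17.6 and 6.44 CPM in ventral midbrain. The groups lay far apart, with ventral midbrain replicate 4 the lowest and control replicate 4 the highest. The log2 fold change was -2.37 ± 0.37 (SE, edgeR adjusted p = 0.020), while the fit blocked by replicate gave -2.42 with an adjusted p of 0.11. WIF1 was not called without control replicate 3, control replicate 4 or ventral midbrain replicate 2 (with adjusted p-values up to 0.072). The share of WIF1 in the summed inhibitor CPM was 15.7% ± 3.11 in control and 3.81% ± 1.61 in ventral midbrain (SD, n = 3).

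Some markers of other cell types differed between the groups beside WIF1. Of 13 tested mesenchymal and fibroblast markers 4 fell (COL1A1, COL3A1, PRRX1 and FOXC1). TWIST1 was lower with the block (adjusted p 0.014, and 0.052 by edgeR without it). TBX18, too low to test, had 0, 1 and 10 reads in control and 0 in each ventral midbrain library. The 14 listed genes summed to 1296 to 1992 CPM in control and 781 to 1010 CPM in ventral midbrain. COL1A1 held much of that sum, and the other 13 genes summed to 625 to 1009 CPM and 545 to 704 CPM, which overlap. In the same list POSTN averaged 65.8 and 124 CPM (adjusted p 0.060, and 0.00030 and higher with the block), DCN and LUM were below 3 CPM on average and higher in each ventral midbrain library without a call, and THY1, PDGFRB and ACTA2 overlapped. The 12 neuronal markers summed to 1284 to 2027 CPM and 718 to 1193 CPM, with none at 0 as a group mean, and none of the 11 tested passed edgeR's test, while 4 had an unadjusted p under 0.05, DESeq2 called 4, limma voom none, and the replicate block gave 5 lower. STMN2 alone accounted for nearly all of the difference in that sum, with 1061 and 449 CPM on average. The other 11 genes summed to 561 to 644 CPM and 499 to 623 CPM, with TUBB3, MAP2, SYT1 and SNAP25 overlapping between groups. DCX, INA, NEFM and NEFL were lower with the block and by DESeq2, with edgeR log2 fold changes of -1.14, -1.91, -2.25 and -2.10. Without STMN2 the 10 tested genes had 4 positive and 6 negative values and a median of -1.01. The part of any of these cell types in the WIF1 fall was not tested.

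The inhibitors with the most reads were not called. SFRP1, a secreted Frizzled-like decoy, was at 227, 204 and 220 CPM in control and 183, 192 and 172 CPM in ventral midbrain. The groups did not overlap, yet the log2 fold change of -0.25 ± 0.14 (SE) had an adjusted p of 0.56. DKK3, a Dickkopf relative, was at 102, 102 and 121 CPM in control and 101, 100 and 107 CPM in ventral midbrain, with overlap and a 95% interval of -0.40 to 0.24 on the log2 scale. SFRP2 averaged 45.1 and 49.6 CPM and DKK2 1.33 and 1.17 CPM, both with overlap. DKK1, which blocks LRP6, had no read in control and up to 0.392 CPM in ventral midbrain, and SFRP4 stayed at or below 0.605 CPM. The summed inhibitor level was 442 ± 23.8 CPM in control and 350 ± 17.7 CPM in ventral midbrain (SD, n = 3).

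R-spondins amplify WNT signals by binding LGR receptors and holding off the ligases ZNRF3 and RNF43. LGR4, their main receptor in these libraries, was at 63.9, 49.7 and 48.2 CPM in control and 39.3, 36.2 and 28.7 CPM in ventral midbrain. All ventral midbrain libraries were below all controls, and the log2 fold change was -0.63 ± 0.18 (SE), at an edgeR adjusted p of 0.13, which the replicate block moved to 0.010. RSPO3 was at 3.95, 2.48 and 1.66 CPM in control and 4.49, 2.67 and 2.43 CPM in ventral midbrain, with overlap (adjusted p = 0.92). RSPO2 was at 0.0732 to 3.08 CPM in control and 0.392 to 0.716 CPM in ventral midbrain (adjusted p = 0.64), and RSPO1 was too low to test. By edgeR without the block, DESeq2 and limma voom none of the 3 tested genes passed, and LGR4 had an unadjusted p under 0.05.

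The canonical targets and feedback genes had 1 of 8 tested members higher, none lower, 6 positive and 2 negative log2 fold changes, and a median of 0.63. The 12 tested ligands and inhibitors had none higher, 1 lower, 6 positive and 6 negative values, and a median of -0.02. All tested genes had a median of 0.01. The targets summed to 97.1, 97.8 and 97.6 CPM in control and 136, 133 and 207 CPM in ventral midbrain, and ligands with inhibitors to 575, 544 and 580 CPM and 548, 517 and 571 CPM. The summed target level was thus higher in each ventral midbrain library and the summed ligand and inhibitor level overlapped between groups. That pooled sum joins 2 roles that moved in opposite directions. Ligands alone summed to 136, 124 and 113 CPM in control and 196, 150 and 240 CPM in ventral midbrain, higher in each library. Inhibitors alone summed to 440, 420 and 467 CPM and 352, 367 and 331 CPM, lower in each library. Without ZNRF3 the targets summed to 46.4, 49.6 and 65.3 CPM in control and 48.6, 66.0 and 87.3 CPM in ventral midbrain, which overlap, and their median log2 fold change was 0.22.

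NKD2, a protein that binds Dishevelled and dampens WNT signals, was the called target. It was at 5.19, 2.65 and 4.61 CPM in control and 12.4, 18.7 and 19.8 CPM in ventral midbrain. Each ventral midbrain library was above each control, and replicate 2 gave the smallest difference between same-numbered libraries. The log2 fold change was 2.02 ± 0.32 (SE, edgeR adjusted p = 0.010), and the call was lost without ventral midbrain replicate 4 alone (adjusted p 0.052). Its paralog NKD1 averaged 11.9 ± 2.70 and 13.2 ± 6.77 CPM (SD, n = 3), with overlap and an adjusted p of 0.94.

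ZNRF3, a ligase that removes Frizzled receptors from the cell surface, was the most abundant of these genes. Its level was 50.7, 48.2 and 32.3 CPM in control and 86.9, 67.2 and 120 CPM in ventral midbrain. The groups did not overlap, and ventral midbrain replicate 3 was the lowest of its group, as for WNT5A. The log2 fold change was 1.06 ± 0.24 (SE), with an edgeR adjusted p of 0.058, 0.088 with the replicate block and 0.0032 by DESeq2, and ZNRF3 passed without ventral midbrain replicate 3 (1.24, adjusted p 0.026) and in none of the other 5 fits that left out a library (0.82 to 1.18, adjusted p 0.098 to 0.20). Its relative RNF43 was at 0.0732 to 1.28 CPM in control and 0.975 to 3.58 CPM in ventral midbrain, with overlap, and lies over SUPT4H1 on the same strand, which had 1016 to 1945 reads.

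AXIN2, the scaffold of the destruction complex that is widely used as a readout of canonical signalling, was at 15.8, 15.1 and 19.7 CPM in control and 15.0, 20.1 and 23.8 CPM in ventral midbrain. The groups overlapped. AXIN2 had a log2 fold change of 0.22 ± 0.23 (SE) with a 95% interval of -0.29 to 0.73 and an adjusted p of 0.81, so that a doubling lies outside the interval and a smaller rise or a slight fall inside it. LEF1, a factor that binds beta-catenin and is itself a target, averaged 3.44 ± 0.551 CPM in control and 7.15 ± 1.91 CPM in ventral midbrain (SD, n = 3) without overlap, at an adjusted p of 0.21. NOTUM, an enzyme that strips the lipid from WNT proteins, was at 2.31 to 12.6 CPM and 1.30 to 7.52 CPM (adjusted p = 0.81). LGR5 had at most 21 reads in a library and SP5 at most 5, too few to test.

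**Figure D3:**
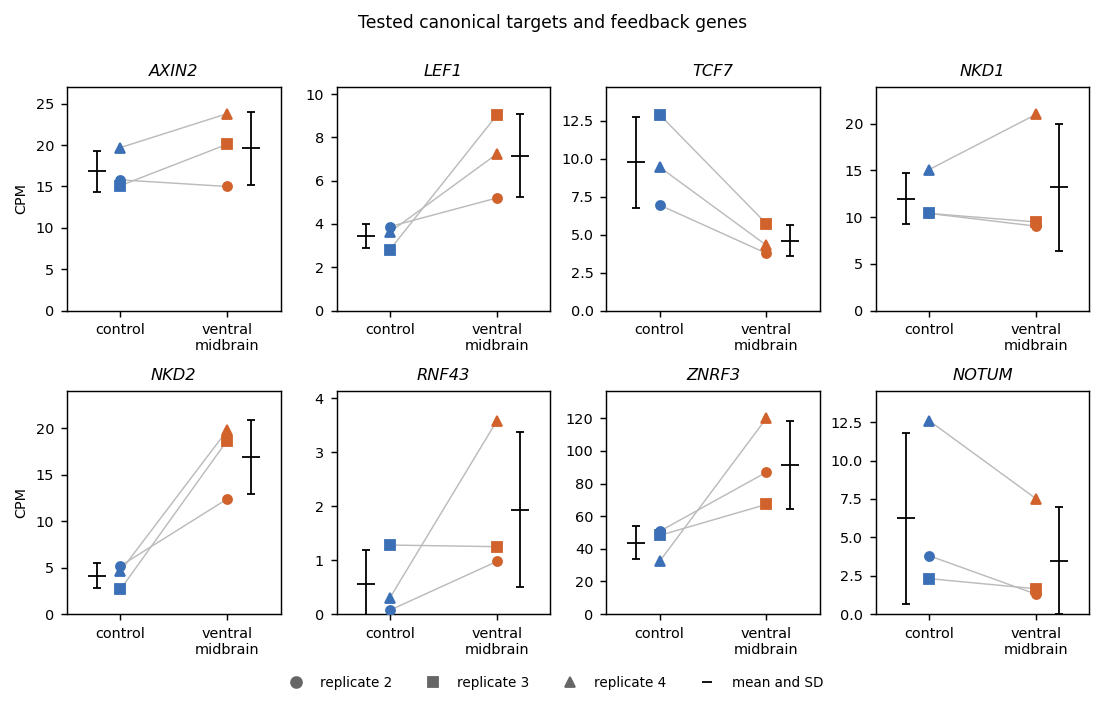
CPM (y axis, from 0) of the 8 tested canonical targets and feedback genes in control and ventral midbrain libraries; symbols are replicates, grey lines join same-numbered libraries, and black bars give the mean and SD of 3 libraries. NKD2, ZNRF3 and LEF1 are higher in every ventral midbrain library, TCF7 is lower in every one, and AXIN2, NKD1, RNF43 and NOTUM overlap.

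The TCF and LEF factors did not share a direction. TCF7, counted with the targets, was at 6.95, 12.9 and 9.45 CPM in control and 3.77, 5.72 and 4.30 CPM in ventral midbrain. All ventral midbrain libraries were lower, and the log2 fold change was -1.09 ± 0.33 (SE), at an edgeR adjusted p of 0.16, which the replicate block moved to 0.034. TCF7 overlaps SKP1 on the opposite strand, which had 2790 to 4259 reads, so if strand was not used in counting the reads of the pair cannot be told apart. TCF7L1, the family member best known as a repressor, was at 171, 144 and 135 CPM in control and 296, 169 and 205 CPM in ventral midbrain. Ventral midbrain replicate 3 lay within the control range, and the log2 fold change of 0.58 ± 0.21 (SE) had an edgeR adjusted p of 0.26, and 0.017 with the block. TCF7L2 was at 146, 143 and 154 CPM in control and 189, 182 and 158 CPM in ventral midbrain, without overlap (log2 fold change 0.26, adjusted p = 0.56). Neither TCF7L factor was called by edgeR without the block, DESeq2 or limma voom, and 1 had an unadjusted p under 0.05.

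**Figure D4:**
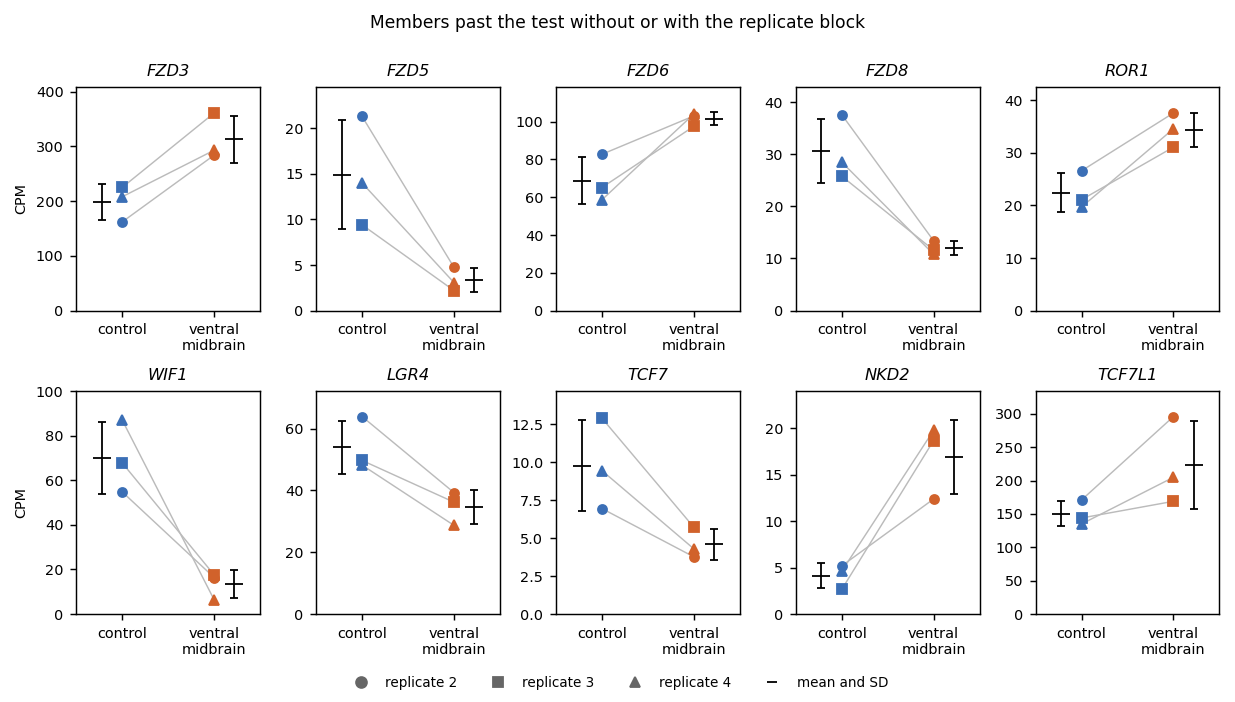
CPM (y axis, from 0) of the 10 members past the test without or with the replicate block, in control and ventral midbrain libraries; symbols are replicates, grey lines join same-numbered libraries, and black bars give the mean and SD of 3 libraries. FZD5, FZD8, WIF1, LGR4 and TCF7 are lower in each ventral midbrain library and FZD3, FZD6, ROR1, NKD2 and TCF7L1 are higher than in the control library of the same number.

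By position, on GRCh38 with the GENCODE 29 gene models, NKD2 (ENSG00000145506) lies at chr5:1008829-1038943 on the forward strand. WIF1 (ENSG00000156076) lies at chr12:65050626-65121566, FZD5 (ENSG00000163251) at chr2:207762586-207769563 and FZD8 (ENSG00000177283) at chr10:35638249-35642278, all on the reverse strand. The 4 genes are thus on 4 chromosomes. Salmon assigned the estimated reads of each to 1 annotated transcript, out of 5 for NKD2, 3 for WIF1 and 1 each for FZD5 and FZD8. This is an estimate, since reads at the 3' end cannot tell apart transcripts that share that end. Genes overlapping these 4 had at most 1 read in a library, while 30 of the 52 members are overlapped by another annotated gene.

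A further 98 genes of the pathway, listed by role, put the members in context. Of 85 tested, 3 were higher (VANGL2, CELSR2 and SOX4) and none lower, which is 3.53% beside 2.15% of all tested genes. With the replicate block 12 were higher and 6 lower, where 3.63% of all tested genes were higher and 4.5% lower. Their median log2 fold change was 0.04. Of 18 genes of planar cell polarity, the non-canonical system that aligns cells in a sheet, 2 passed (11.1%, beside 2.15% of all tested genes). VANGL2, a membrane protein of the core complex, was at 24.7, 17.6 and 18.8 CPM in control and 40.9, 49.5 and 55.8 CPM in ventral midbrain. CELSR2, an adhesion receptor of the same complex, was at 69.8, 64.5 and 53.2 CPM and 116, 102 and 121 CPM. The groups overlapped in neither, and the log2 fold changes were 1.26 ± 0.20 (SE, edgeR adjusted p = 0.010) and 0.85 ± 0.16 (SE, edgeR adjusted p = 0.020). With the block CELSR1 and DAAM1 were higher as well, and the 18 genes had a median of 0.22. The VANGL2 call was lost without control or ventral midbrain replicate 4, and the CELSR2 call without control replicate 3 or 4 or ventral midbrain replicate 2 or 4, and with the deposited normalized values.

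Of 14 tested further target genes 1 rose (7.14%, beside 2.15% of all tested genes called). SOX4, a transcription factor of neural progenitors and neurons, was at 834, 634 and 622 CPM in control and 1286, 1283 and 1231 CPM in ventral midbrain. The ventral midbrain libraries lay close together above all controls (log2 fold change 0.86 ± 0.17, SE, edgeR adjusted p = 0.026), and the call was kept in 1 of the fits that left out a library, the one without control replicate 2. With the block TBX3 was also higher and CD44 and VEGFA lower. None of the 34 genes of intracellular canonical signalling passed edgeR's test. An unadjusted p under 0.05 was found in 4 of them, near the 12% of all tested genes, while DESeq2 called 3 and limma voom 1. Their median was -0.03 and their summed level was 3007 ± 193 CPM and 3003 ± 101 CPM (SD, n = 3), and with the block APC2, TLE1 and DACT1 were higher and CDK14 lower. Of 19 tested genes of ligand export, further ligands and extracellular modulators none passed edgeR's test, 6 had an unadjusted p under 0.05, DESeq2 called 2 and limma voom none. With the block PORCN, which attaches the lipid to WNT proteins, KREMEN1 and TSPAN12 were higher, and the decoy FRZB, RSPO4 and GPC4 were lower.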

How the data were processed

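RNA of 6 libraries was profiled. The authors deposited, per library, Salmon's estimated counts per transcript, and 1 table of signal for 21509 genes, whose normalization is not stated. Salmon, with no version, DESeq2 1.27.12 and GRCh38.p13 are named in the submitters' processing notes. The sources used here do not say if strand entered the counting.

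Estimated counts were summed per gene with GENCODE 29, matching 205225 of 226608 transcripts by identifier without version (unmatched ones held 0.992% to 1.12% of reads), and rounded. All genes were filtered with filterByExpr, scaled by TMM and compared between groups by the robust quasi-likelihood test of edgeR 4.0.16 (R 4.3.3), with p-values adjusted after Benjamini and Hochberg. The biological coefficient of variation common to all genes was 0.309. Each standard error was taken as |log2 fold change| over the root of F. A count of 0 was given a limit of 3 reads, for counting error only.

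The members, roles, marker lists and naming rule were chosen with earlier results of these data known. Values per library are given for members past the test with or without the replicate block, for the 2 highest in each role and for the 3 smallest p among targets; other members quoted per library, FZD10 among them, were picked after their values were seen. The groups share the numbers 2, 3 and 4. Deviations from group means correlated at 0.234, 0.345 and 0.204 between same-numbered libraries and at most at 0.0237 otherwise. The main edgeR test nevertheless compared the groups without the replicate number, so its calls do not take this correlation into account. The fit with the replicate number as a block was run as an alternative. The meaning of the shared numbers is not given in the labels. Alternatives were other scalings and filters, DESeq2 1.42.0, limma 3.58.1 voom, the deposited signal on log2(value + 1), the replicate block, protein-coding genes, a stricter threshold and leaving out each library. Upstream windows come from RefSeq. Figures used matplotlib 3.10.9.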

Additional observations from a re-analysis of the deposited data

How the results depend on the processing

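With 3 libraries a group, small changes of low genes were not detectable: low members had wide intervals and 12 were not tested. The number of genes past the test was 344, with 1012 without a filter on low counts, 747 with DESeq2, 182 with the deposited signal, 1300 with the replicate block, 102 at an adjusted p under 0.01, and 131 to 258 when 1 library was left out. The 1 member higher became 6 without the filter, 4 with DESeq2, 5 with the replicate block and 0 at an adjusted p under 0.01, and 0 to 3 when 1 library was left out, with 0 without ventral midbrain replicate 4 and 3 without ventral midbrain replicate 3. The 3 members lower became 0 at an adjusted p under 0.01 and 1 to 2 when 1 library was left out, with 1 without control or ventral midbrain replicate 4. The replicate block ended the call of WIF1 and added those of FZD3, FZD6, ROR1, LGR4, TCF7 and TCF7L1, and it changed no other member's call. The causes were not tested.

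Of 595 member fold changes under an alternative, 547 kept direction and side of the threshold, 10 lost and 17 gained the call, and 21 changed sign. The sign changes were in 13 uncalled members, each in fits that left out 1 library. Their log2 fold changes there ranged from -0.13 to 0.29 (WNT2B), -0.19 to 0.38 (WNT3), -1.02 to 0.05 (WNT3A), -0.18 to 0.42 (WNT5B), -1.01 to 0.80 (WNT7B), -0.002 to 0.36 (FZD2), -0.16 to 0.26 (FZD7), -1.22 to 0.34 (DKK2), -0.12 to 0.005 (DKK3), -0.004 to 0.30 (SFRP2), -0.09 to 0.63 (RSPO3), -0.37 to 0.35 (NKD1) and -2.08 to 0.18 (NOTUM).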

Other observations

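Replicate 3 of each group tended to hold the lowest WNT values of its group. Among the 125 tested members and other pathway genes, replicate 3 was the lowest control library for 59 (47.2%), beside 34.7% of all tested genes, and the lowest ventral midbrain library for 54 (43.2%), beside 35.5% of all tested genes. For the 40 tested members alone the numbers were 20 and 16. The genes share libraries and are not independent, and this pattern was noticed in the same data and not tested.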
